A study of Mus musculus with 20 samples.

Results

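Transforming growth factor beta (TGF-beta) signalling was followed in cortical microglia through 10 genes of 54838 counted: the ligand Tgfb1, its tether Nrros, the integrin subunit Itgav, the receptors Tgfbr1 and Tgfbr2, the signal transducers Smad2, Smad3 and Smad4, and the inhibitors Smad7 and Ski. The genes were taken as a list by symbol, chosen with earlier results of these data known, and each matched 1 Ensembl identifier in the count files. TGF-beta is made as a latent complex that is held at the cell surface or in the matrix until integrins or proteases release it. The freed ligand brings together TGFBR2 and TGFBR1, a pair of receptor kinases, and TGFBR1 then phosphorylates SMAD2 and SMAD3, which enter the nucleus with SMAD4. In the mouse brain this signal is known for keeping microglia in their homeostatic state, with high levels of genes such as P2ry12 and Tmem119.

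Microglia were sorted from frontal cortex of mice at postnatal day 40, with 1000 cells per mouse taken on high CD11b and low CD45, and their RNA was amplified by template switching before Nextera library preparation. The 20 libraries, 1 per mouse, carry 5 genotype labels: hC4A/A (n = 2), hC4A/- (n = 5), hC4B/- (n = 4), C4-/- (n = 5) and WT (n = 4). C4 is a complement component, hC4A and hC4B denote its human genes, C4-/- denotes loss of mouse C4, and the comparisons ask what each human gene, its dose and the loss of C4 change. The labels give no sex and no line or founder, and they do not state whether mice with human C4 keep any mouse C4. Since each library is 1 mouse per the protocol, p-values measure the spread between single-mouse libraries. In such bulk libraries fewer cells of a type and less RNA per cell cannot be told apart.

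The gene counts of a library summed to 855099 to 2735181, with a median of 1710215.5. Levels are given as CPM, counts normalised to library sizes scaled by the TMM method, and comparisons between genes use CPM per kilobase of exon. All 14 microglial marker genes were detected in every genotype, with a summed level of 5013 to 13132 CPM. Against this stood 56.5 to 744 CPM for 7 astrocyte genes and 45.8 to 359 CPM for 8 oligodendrocyte genes. The 8 neutrophil genes summed to 47.4 to 70.2 CPM in hC4A/A, 0.531 to 113 CPM in hC4A/-, 0 to 174 CPM in hC4B/-, 0 to 144 CPM in C4-/- and 100.4 to 1408 CPM in WT libraries, and their part in the differences from WT was not tested. In 4 libraries (hC4A/A 2, hC4B/- 2, hC4B/- 3 and C4-/- 3), called broad here, 27178 to 30907 genes were detected, against 11348 to 23912 in the other 16. Olfactory and vomeronasal receptor genes, which microglia are not known to use, numbered 1457, of which 55.7% to 73.5% were detected in a broad library and 6.04% to 39.5% in any of the rest. A list of 14 satellite-like genes took 13.3% to 81.0% of the gene counts of a library. The counts of mouse C4b ran counter to what the labels C4-/- and WT would mean if taken literally: the 16 libraries that are not WT, those labelled C4-/- included, held 4 to 428 each, and WT libraries held 0 to 2. The 4 highest counts, 157 to 428, were those of the broad libraries, and the other libraries that are not WT held 4 to 104. The WT files also carry deposited names of their own series, so in every comparison with WT the genotype and that series cannot be told apart.

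All 10 genes had at least 1 count in all 20 libraries, and all 10 passed the filter on low counts. Their median levels per kilobase ran, from high to low, in the order Tgfbr1, Smad7, Smad3, Ski, Smad4, Itgav, Nrros, Tgfbr2, Tgfb1 and Smad2. Tgfbr1 stood at a median of 69.3 CPM per kilobase, above 97.7% of the 12680 genes tested, and Smad7 at 53.9 CPM per kilobase, above 97.1%. Smad3 followed at 24.9, Ski at 16.8, Smad4 at 12, Itgav at 8.40, Nrros at 5.12, Tgfbr2 at 2.86 and Tgfb1 at 2.76 CPM per kilobase. Smad2 was last at 0.457 CPM per kilobase, above only 29.3% of the genes tested. Neighbours in this order overlapped. Smad7 exceeded Smad3 in 18 of 20 libraries and Tgfb1 exceeded Smad2 in 16, while Tgfbr1 exceeded Smad7 in 15 and Smad4 exceeded Itgav in 14. Each other neighbour pair kept the order of its medians in 12 or 13 of 20 libraries, so those places cannot be told apart beyond the spread between libraries. The order also depends on the gene length used. Per kilobase of the longest transcript in place of all exons, the median of Tgfb1 was 5.40 and that of Tgfbr2 2.89 CPM per kilobase, so Tgfb1 stood above Tgfbr2, and no other place changed.

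**Figure D1:**
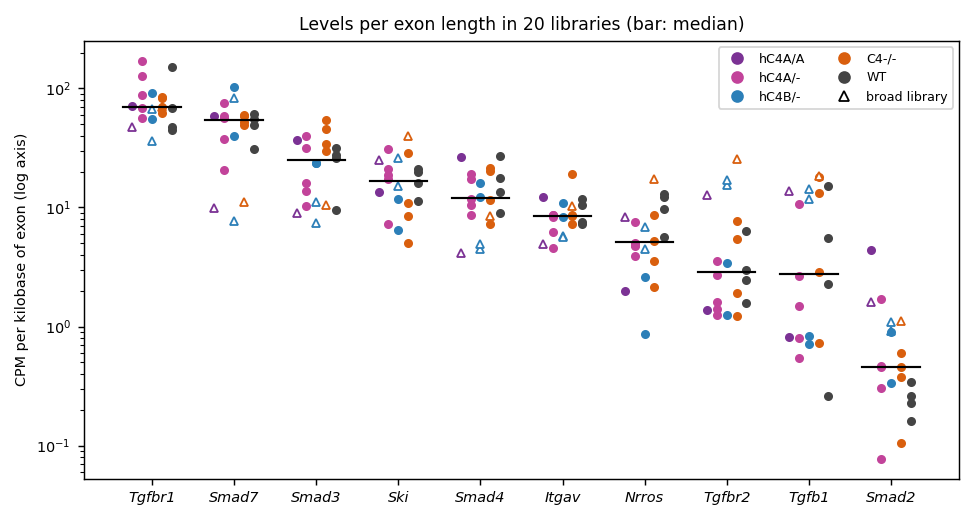
Level of each gene in CPM per kilobase of exon (log axis) in the 20 libraries, with 1 point per library coloured by genotype, open triangles for the 4 broad libraries and a bar at the median. Tgfbr1 and Smad7 lie at the top with medians of 69.3 and 53.9, and Smad2 at the bottom with 0.457.

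No gene of the pathway differed between genotypes at the threshold used, an adjusted p under 0.05. In an edgeR quasi-likelihood model of all 20 libraries, none of the 10 genes was called in any of 9 comparisons of genotypes or in the F test for any difference among the 5. Each of the 9 comparisons called 0 of 12680 genes tested, a background of 0%, and the F test called 15 genes, 0.118%. Of the 90 values for these genes in the 9 comparisons, 5 had an unadjusted p under 0.05, with a smallest edgeR adjusted p of 0.246. DESeq2 called 0 of the 90 with 8 under an unadjusted p of 0.05, and limma voom called 0 with 4. Over the 9 comparisons and the F test, 5.25% of the values of all genes were under 0.05 with limma voom and 4.62% with DESeq2. The DESeq2 share covers every gene with a count, low ones included, so it is not a like background for these 10 genes. The 5 edgeR values were Smad2 in hC4A/A against hC4A/-, against C4-/- and against WT, and Tgfbr2 in hC4A/- against hC4B/- and against C4-/-. Over all genes with edgeR, an unadjusted p under 0.05 was reached by 11.5% in hC4A/A against hC4A/-, 2.17% in hC4A/A against C4-/-, 8.41% in hC4A/A against WT, 16.7% in hC4A/- against hC4B/- and 10.7% in hC4A/- against C4-/-. In the other comparisons it was reached by 0 of the 10 genes and by 4.52% of all genes in hC4B/- against C4-/-, 7.51% in hC4A/- against WT, 13.1% in hC4B/- against WT and 8.53% in C4-/- against WT. Standard errors of the log2 fold changes ran from 0.55 to 1.36 over the 90 values, and the biological coefficient of variation of the fit was 1.03.

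**Figure D2:**
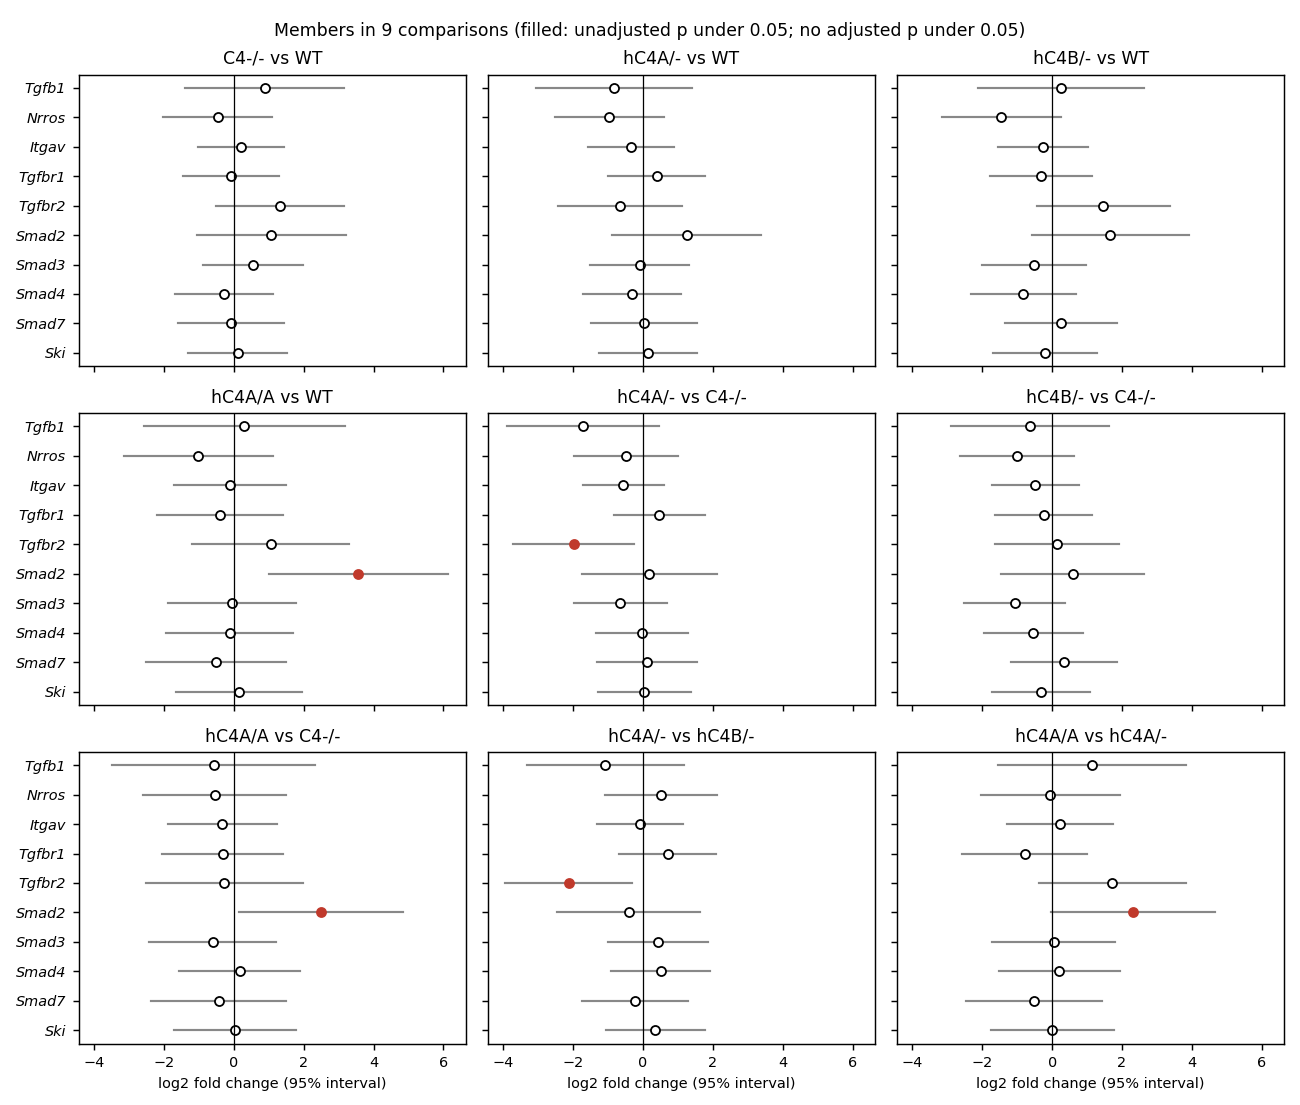
Log2 fold change of each gene in the 9 comparisons of genotypes, with 95% intervals from 15 residual degrees of freedom. Filled points mark the 5 values with an unadjusted p under 0.05, and no value had an adjusted p under 0.05.

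Tgfb1 (ENSMUSG00000002603, GRCm38 chromosome 7, 25687002 to 25705077, forward strand) encodes TGF-beta 1, the ligand. It was counted at 4.15 and 69.2 CPM in hC4A/A libraries, 2.73, 53.6, 7.47, 4.05 and 13.5 CPM in hC4A/- libraries, 4.22, 72.7, 59.2 and 3.62 CPM in hC4B/- libraries, 91.7, 3.70, 93.3, 14.3 and 66.5 CPM in libraries labelled C4-/-, and 1.32, 76.7, 11.4 and 27.7 CPM in WT libraries. High and low libraries occurred within every genotype, and no pair of genotypes was separated. Its span of 70.7 times between the lowest and the highest library was the widest of the 10 genes. In hC4A/- against C4-/- Tgfb1 averaged 16.3 ± 21.3 CPM in hC4A/- (SD, n = 5) and 53.9 ± 42.5 CPM in C4-/- libraries (SD, n = 5). The log2 fold change of -1.72 ± 1.02 (SE) had a 95% interval of -3.89 to 0.45 and an edgeR adjusted p of 0.531, in the comparison where Tgfb1 had its smallest p. Broad libraries held 59.2 to 93.3 CPM of Tgfb1, with a median of 71, against a median of 9.42 CPM in the other 16. Leaving the 4 broad libraries out gave a log2 fold change of -1.05 ± 1.04 in hC4A/- against C4-/-. C4-/- against WT shrank as well, from 0.89 to 0.13. Other Tgfb1 values grew, with 2 hC4B/- libraries left. In hC4B/- against C4-/- the value went from -0.64 ± 1.06 to -3.00 ± 1.60 (edgeR adjusted p = 0.714). In hC4B/- against WT it went from 0.25 ± 1.11 to -2.87 ± 1.59 (edgeR adjusted p = 0.715). The lowest library, WT 1, rested on 4 counts, and 15 of 20 libraries held at least 10.

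Nrros (ENSMUSG00000052384, GRCm38 chromosome 16, 32142785 to 32165594, reverse strand) encodes a transmembrane protein that tethers latent TGF-beta 1 on the surface of mouse microglia. Its levels were 8.29 and 34.6 CPM in hC4A/A libraries, 21.2, 19.6, 16.3, 20.3 and 31.6 CPM in hC4A/- libraries, 11, 28.6, 18.8 and 3.62 CPM in hC4B/- libraries, 21.6, 14.8, 72.6, 9.03 and 36.2 CPM in libraries labelled C4-/-, and 40.3, 51.4, 23.5 and 54.6 CPM in WT libraries. The 4 WT libraries were mostly high and the hC4B/- libraries mostly low, but the groups overlapped. Mean Nrros was 15.5 ± 10.7 CPM in hC4B/- (SD, n = 4) and 42.4 ± 14 CPM in WT libraries (SD, n = 4). The log2 fold change of -1.46 ± 0.80 (SE) spanned -3.16 to 0.24 and had an edgeR adjusted p of 0.409. The hC4B/- libraries that were not broad held 11 and 3.62 CPM, the latter from 5 counts. With the broad ones left out the log2 fold change was -2.49 ± 0.92 with an edgeR adjusted p of 0.654. Its mean was highest in WT among the 5 genotypes, and the part of the neutrophil genes and of the WT naming series in that order was not tested.

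Itgav (ENSMUSG00000027087, GRCm38 chromosome 2, 83724397 to 83806916, forward strand) encodes the integrin alpha V subunit, which pairs with several beta subunits to release TGF-beta from its latent complex. Its levels were 131 and 52.6 CPM in hC4A/A libraries, 92.8, 89.2, 93.1, 49.2 and 67.3 CPM in hC4A/- libraries, 89.9, 62, 61.2 and 117 CPM in hC4B/- libraries, 92.2, 90.5, 111, 206 and 78.3 CPM in libraries labelled C4-/-, and 113, 78.1, 81.1 and 126 CPM in WT libraries. Apart from the high C4-/- 4 library, the genotypes covered much the same range. Its coefficient of variation over the 20 libraries was 37.2%, against a median of 111% over all genes tested, and 0.331% of those genes had a smaller one. Counting error adds to this coefficient and is larger for genes with fewer counts. The log2 fold changes of Itgav ran from -0.56 to 0.24 over the 9 comparisons, and from -0.51 to 0.62 without the broad libraries. In hC4A/- against C4-/-, where its p was smallest, the means were 78.3 ± 19.5 CPM in hC4A/- (SD, n = 5) and 116 ± 51.6 CPM in C4-/- libraries (SD, n = 5), with an interval of -1.73 to 0.60 for the log2 fold change and an edgeR adjusted p of 0.721. The counts ignore strand and Itgav exons overlap the antisense gene Gm13684, so reads of both cannot be told apart where they overlap. Gm13684 itself held 180 counts over the 20 libraries and Itgav 3506.

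**Figure D3:**
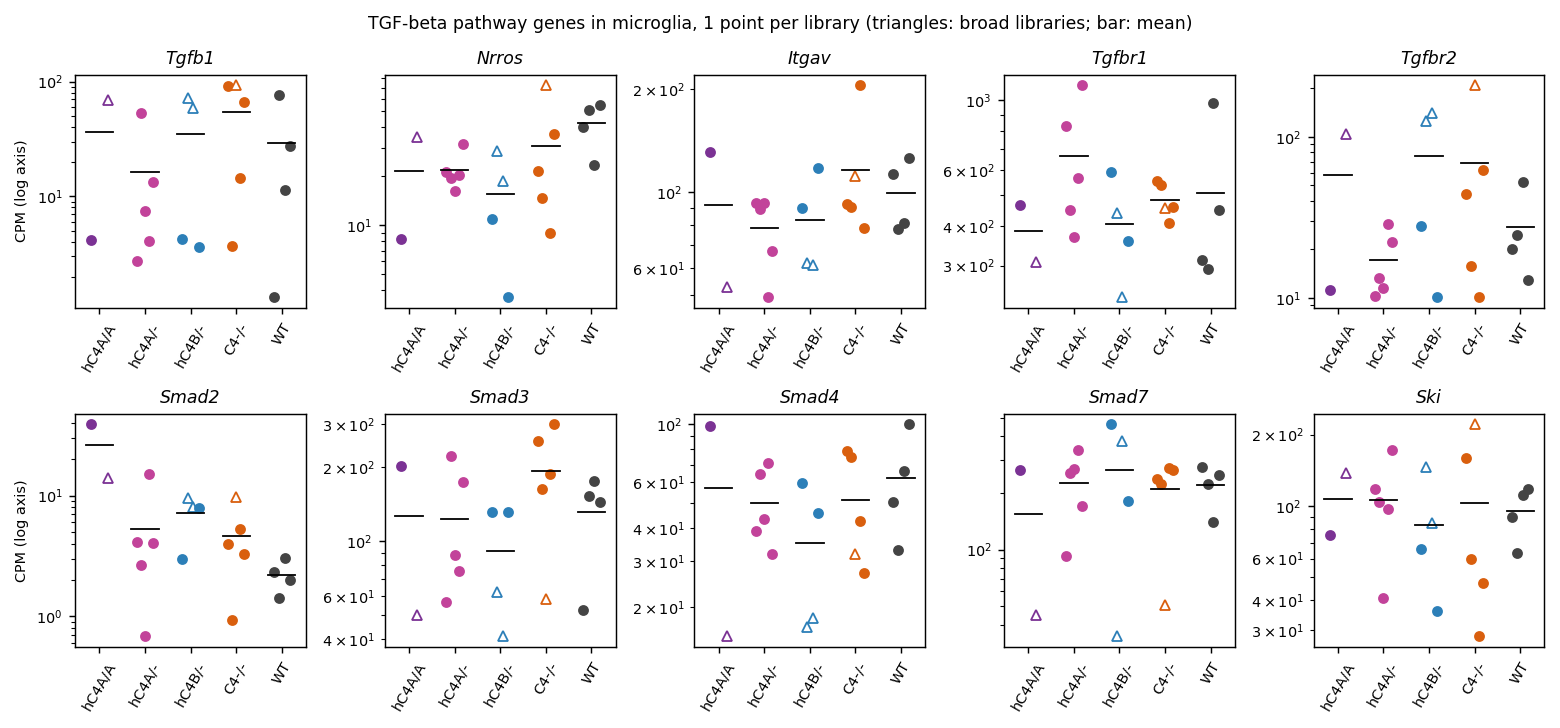
CPM (log axis) of the 10 genes by genotype, with 1 point per library, open triangles for the 4 broad libraries and a bar at the mean of each genotype. Genotypes overlap for all genes in the 9 comparisons except Smad2, whose 2 hC4A/A libraries at 38.9 and 14.1 CPM lie above all C4-/- and WT libraries.

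The receptors act as a pair, and Tgfbr1 exceeded Tgfbr2 per kilobase in every library, so their upstream sequences are shown side by side. For each gene the 250 bases before the start were taken from RefSeq promoter windows of the build GRCm38.p6, which held 7 of the 10 genes. Capitals mark CAGAC, the SMAD box, on either strand. The Tgfbr1 window is chr4:47352972-47353221 on the forward strand and the Tgfbr2 window chr9:116175364-116175613 on the reverse strand, each printed 5′ to 3′ along its gene.
Tgfbr1: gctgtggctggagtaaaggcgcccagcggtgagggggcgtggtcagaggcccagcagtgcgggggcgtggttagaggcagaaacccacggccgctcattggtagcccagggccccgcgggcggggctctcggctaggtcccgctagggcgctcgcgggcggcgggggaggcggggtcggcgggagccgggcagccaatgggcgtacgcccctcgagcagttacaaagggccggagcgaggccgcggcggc
Tgfbr2: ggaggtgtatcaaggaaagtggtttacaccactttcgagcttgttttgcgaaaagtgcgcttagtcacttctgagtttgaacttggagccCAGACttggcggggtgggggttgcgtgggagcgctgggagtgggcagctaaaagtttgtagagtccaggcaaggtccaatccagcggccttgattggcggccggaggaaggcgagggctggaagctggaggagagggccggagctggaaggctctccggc
The Tgfbr1 window was 74.8% G and C and held no CAGAC, and the Tgfbr2 window was 58.4% G and C and held 1. Among the 7 genes with a window, CAGAC occurred in 2, Tgfbr2 and Nrros, while 42.2% of 32851 promoter windows of this length held it. The palindrome GTCTAGAC occurred in 0 of 7, against 0.167% of all windows, and GGAAGT, an ETS core with flank, in 1 of 7, Itgav, against 19.7%. A match of letters is a description and not a binding site.

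Tgfbr1 (ENSMUSG00000007613, GRCm38 chromosome 4, 47353222 to 47414931, forward strand) encodes the type I receptor kinase, which phosphorylates SMAD2 and SMAD3. Counts gave 466 and 308 CPM in hC4A/A libraries, 832, 449, 369, 569 and 1117 CPM in hC4A/- libraries, 594, 439.9, 238 and 358 CPM in hC4B/- libraries, 556, 539, 455, 409 and 459 CPM in libraries labelled C4-/-, and 313, 293, 982 and 450.3 CPM in WT libraries. The 3 highest libraries were hC4A/- 5, WT 3 and hC4A/- 1, and all genotypes overlapped. Between the lowest and the highest library it spanned 4.69 times, and its coefficient of variation of 44.6% was below that of all but 1.35% of the genes tested. In hC4A/- against hC4B/-, its smallest p, Tgfbr1 averaged 667 ± 307 CPM in hC4A/- (SD, n = 5) and 408 ± 149 CPM in hC4B/- libraries (SD, n = 4). That gave a log2 fold change of 0.71 ± 0.65 (SE), with an interval of -0.68 to 2.10 and an edgeR adjusted p of 0.605. Without the 4 broad libraries it was 0.36 ± 0.41.

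Tgfbr2 (ENSMUSG00000032440, GRCm38 chromosome 9, 116084293 to 116175360, reverse strand) encodes the type II receptor kinase, which binds the ligand first. Tgfbr2 stood at 11.2 and 104 CPM in hC4A/A libraries, 10.2, 13.3, 11.5, 28.9 and 22.2 CPM in hC4A/- libraries, 27.9, 125, 140.0 and 10.1 CPM in hC4B/- libraries, 44.4, 15.7, 209, 10.1 and 62.5 CPM in libraries labelled C4-/-, and 20.1, 24.6, 52.3 and 12.9 CPM in WT libraries. The 4 highest libraries of all 20 were the 4 broad ones, and the 5 hC4A/- libraries, none of them broad, lay between 10.2 and 28.9 CPM. Mean Tgfbr2 was 17.2 ± 8.04 CPM in hC4A/- (SD, n = 5), 75.8 ± 66.2 CPM in hC4B/- (SD, n = 4) and 68.4 ± 81.6 CPM in C4-/- libraries (SD, n = 5). The log2 fold change in hC4A/- against hC4B/- was -2.13 ± 0.85 (SE), with an interval of -3.93 to -0.32 and an edgeR adjusted p of 0.246. In hC4A/- against C4-/- it was -1.98 ± 0.82 (SE), with an interval of -3.72 to -0.24 and an edgeR adjusted p of 0.439. Both values shrank without the broad libraries. They were then -0.20 ± 0.84 against hC4B/- and -0.64 ± 0.68 against C4-/-, and leaving out C4-/- 3 alone gave -0.60 against C4-/-. Broad libraries had a median of 133 CPM of Tgfbr2 and the other 16 a median of 17.9. Among those 16, Tgfbr2 averaged 17.2 ± 8.04 CPM in hC4A/- (SD, n = 5), 19 ± 12.5 CPM in hC4B/- (SD, n = 2), 33.2 ± 24.7 CPM in C4-/- (SD, n = 4) and 27.5 ± 17.2 CPM in WT libraries (SD, n = 4), with 11.2 CPM in the 1 hC4A/A library. The smallest adjusted p of the 10 genes was this one against hC4B/-, where 2 of 4 hC4B/- libraries also held many more detected genes, and the part of that difference was not tested.

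Per kilobase, Tgfbr1 exceeded Tgfbr2 in 20 of 20 libraries. The ratio of their counts per kilobase had a median of 25.7 and ran from 2.13 to 102. Broad libraries gave 2.13 to 4.40 and the other 16 gave 9.19 to 102, so the sets did not overlap. By genotype the median ratio was 28 in hC4A/A, 42.4 in hC4A/-, 15.5 in hC4B/-, 15.7 in C4-/- and 21.5 in WT libraries. The ratio of Nrros to Tgfb1, the tether to its ligand, lay on both sides of 1, from 0.285 to 36.8, with a value above 1 in 11 of 20 libraries and 0.384 to 0.939 in the broad ones. With the longest transcript as gene length it ran from 0.170 to 21.9 and was above 1 in 10 of 20 libraries.

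**Figure D4:**
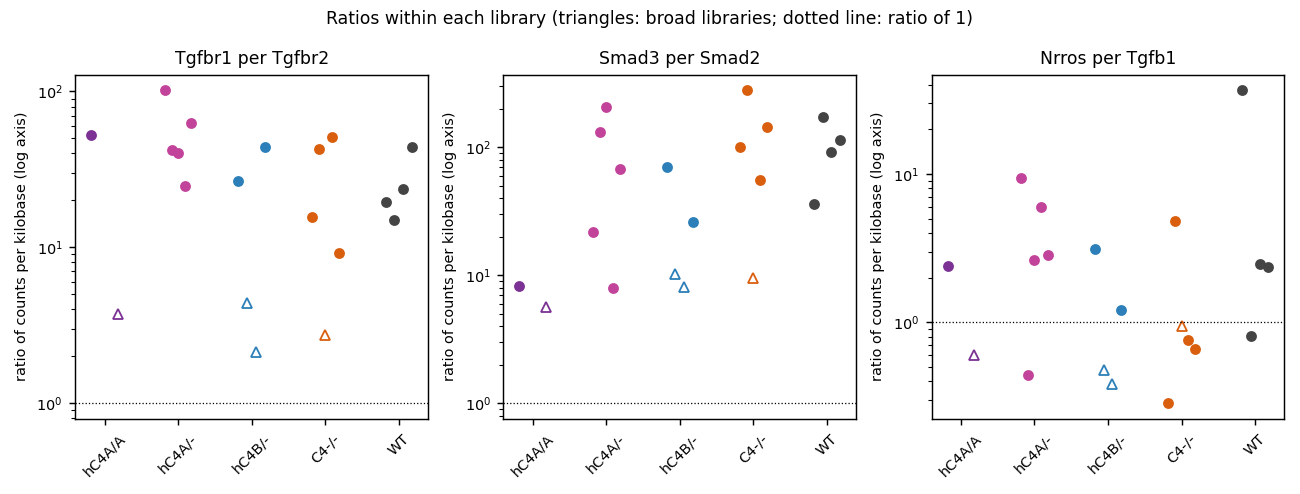
Ratios of counts per kilobase within each library (log axis) for Tgfbr1 per Tgfbr2, Smad3 per Smad2 and Nrros per Tgfb1, by genotype, with open triangles for broad libraries and a dotted line at 1. The 4 broad libraries lie at 2.13 to 4.40 for Tgfbr1 per Tgfbr2, below all 16 others.

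Smad2 had the lowest level of the pathway and the largest log2 fold change. Smad2 (ENSMUSG00000024563, GRCm38 chromosome 18, 76241580 to 76310963, forward strand) encodes a receptor-activated SMAD. Its levels were 38.9 and 14.1 CPM in hC4A/A libraries, 4.09, 2.65, 0.679, 15 and 4.04 CPM in hC4A/- libraries, 2.96, 9.54, 8.07 and 7.96 CPM in hC4B/- libraries, 3.99, 0.924, 9.72, 5.31 and 3.29 CPM in libraries labelled C4-/-, and 2.31, 1.41, 3.03 and 2.01 CPM in WT libraries. Both hC4A/A libraries lay above all C4-/- and all WT libraries, while hC4A/- 4 lay just above the lower hC4A/A library. Broad libraries, the lower hC4A/A library among them, held 8.07 to 14.1 CPM of Smad2. Their median was 9.63 CPM, against 3.16 CPM in the other 16. Groups that do not overlap were found for 1 of 10 genes in hC4A/A against WT, where 11.2% of all genes tested did the same, and for 1 of 10 in hC4A/A against C4-/-, where 4.25% did. None of the 10 genes was so separated in hC4A/A against hC4A/- (9.17% of all genes), hC4A/- against hC4B/- (2.51%), hC4A/- against C4-/- (1.03%), hC4B/- against C4-/- (0.741%), hC4A/- against WT (1.4%), hC4B/- against WT (3.75%) or C4-/- against WT (1.41%). Mean Smad2 was 26.5 ± 17.5 CPM in hC4A/A (SD, n = 2), 5.30 ± 5.62 CPM in hC4A/- (SD, n = 5), 7.13 ± 2.88 CPM in hC4B/- (SD, n = 4), 4.65 ± 3.25 CPM in C4-/- (SD, n = 5) and 2.19 ± 0.675 CPM in WT libraries (SD, n = 4). The log2 fold change in hC4A/A against WT was 3.57 ± 1.21 (SE), with an interval of 1.00 to 6.14 and an edgeR adjusted p of 0.557. It was 2.31 ± 1.10 against hC4A/- (edgeR adjusted p = 0.426) and 2.49 ± 1.11 against C4-/- (edgeR adjusted p = 1). These values rest on few counts and few mice. Smad2 held 277 counts over the 20 libraries, 122 of them in hC4A/A 1, and at least 10 counts in 8 libraries. The 4 WT libraries held 7, 2, 4 and 5 counts. Leaving out hC4A/A 1 gave 2.73 against WT, and leaving out the broad hC4A/A 2 gave 4.15, each with 1 hC4A/A library. In the F test over the 5 genotypes Smad2 had a p of 0.0471, the smallest of the 10 genes, and an edgeR adjusted p of 0.409, where 12% of all genes had a p under 0.05.

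Smad3 (ENSMUSG00000032402, GRCm38 chromosome 9, 63646767 to 63757994, reverse strand) encodes the other receptor-activated SMAD of this pathway. Smad3 stood at 203 and 50.0 CPM in hC4A/A libraries, 56.6, 221, 88.3, 75.8 and 174 CPM in hC4A/- libraries, 131, 62, 41 and 131 CPM in hC4B/- libraries, 255, 164, 58.3, 188 and 299 CPM in libraries labelled C4-/-, and 52.8, 153, 177 and 145 CPM in WT libraries. The C4-/- libraries other than the broad one were high, all broad libraries were low, and hC4A/- 1 and WT 1 lay in the range of the broad libraries. Smad3 averaged 91.3 ± 46.8 CPM in hC4B/- (SD, n = 4) and 193 ± 92.3 CPM in C4-/- libraries (SD, n = 5). Between them the log2 fold change of -1.08 ± 0.68 (SE) spanned -2.52 to 0.37, with an edgeR adjusted p of 0.989, and was -0.45 ± 0.57 without the 4 broad libraries. Per kilobase Smad3 exceeded Smad2 in 20 of 20 libraries, by 5.62 to 280 times. The lowest ratio of the 5 genotypes by median, 6.95, was that of the 2 hC4A/A libraries, and the median was 68.3 in hC4A/-, 18.2 in hC4B/-, 101 in C4-/- and 103 in WT libraries. Broad libraries (hC4A/A 2, hC4B/- 2, hC4B/- 3 and C4-/- 3) gave ratios of 5.62 to 10.3, with a median of 8.78. The other 16 gave 7.98 to 280, with a median of 81.3, and hC4A/A 1 among them gave 8.27. The part of the broad libraries in the order of the genotypes was not tested. Smad2 counts as low as 1 enter this ratio, so its upper end is imprecise.

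Smad4 (ENSMUSG00000024515, GRCm38 chromosome 18, 73639009 to 73703780, reverse strand) encodes the shared partner of activated SMAD2 and SMAD3 in the nucleus. Its levels were 98.5 and 15.4 CPM in hC4A/A libraries, 38.9, 64.3, 43.5, 71.2 and 32 CPM in hC4A/- libraries, 59.5, 16.7, 18.2 and 45.6 CPM in hC4B/- libraries, 79.1, 74.8, 31.8, 42.5 and 27 CPM in libraries labelled C4-/-, and 50.2, 33.1, 65.9 and 99.6 CPM in WT libraries. The 3 lowest libraries were broad, and the genotypes overlapped throughout. In hC4B/- against WT Smad4 averaged 35 ± 21.1 CPM in hC4B/- (SD, n = 4) and 62.2 ± 28.3 CPM in WT libraries (SD, n = 4). Its log2 fold change there was -0.82 ± 0.70 (SE), with an interval of -2.32 to 0.67 and an edgeR adjusted p of 0.588. It was -0.08 ± 0.67 without the 4 broad libraries, whose median level was 17.4 CPM against 54.9 CPM in the other 16.

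Smad7 (ENSMUSG00000025880, GRCm38 chromosome 18, 75367529 to 75395935, forward strand) encodes the inhibitory SMAD, which blocks the type I receptor and is itself switched on by the pathway. Smad7 stood at 266 and 44.9 CPM in hC4A/A libraries, 92.8, 255, 266, 339 and 171 CPM in hC4A/- libraries, 462, 34.6, 379 and 182 CPM in hC4B/- libraries, 237, 224, 50.5, 272 and 264 CPM in libraries labelled C4-/-, and 274, 222, 140.2 and 250.3 CPM in WT libraries. The 3 lowest libraries were again broad, but the broad hC4B/- 3 was among the highest. In hC4A/A against hC4A/- the mean was 155 ± 156 CPM in hC4A/A (SD, n = 2) and 225 ± 94.9 CPM in hC4A/- libraries (SD, n = 5). The log2 fold change of -0.53 ± 0.91 (SE) spanned -2.47 to 1.42, with an edgeR adjusted p of 0.884. Its sign turned to 0.12 ± 0.67 without the broad libraries, a value from 1 hC4A/A library whose spread is assumed to be that of the other genotypes. Without them the mean was 249 ± 22.6 CPM in C4-/- (SD, n = 4) and 222 ± 58.4 CPM in WT libraries (SD, n = 4), and the coefficient of variation over the 16 libraries was 34%.

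Ski (ENSMUSG00000029050, GRCm38 chromosome 4, 155154075 to 155222592, reverse strand) encodes a corepressor that binds SMAD2, SMAD3 and SMAD4 at target genes. It was counted at 75.3 and 138 CPM in hC4A/A libraries, 118, 104, 40.8, 97.2 and 172 CPM in hC4A/- libraries, 65.9, 145, 84.8 and 36.2 CPM in hC4B/- libraries, 159, 60.1, 221, 28.1 and 47.4 CPM in libraries labelled C4-/-, and 90.1, 63.3, 111 and 118 CPM in WT libraries. Library C4-/- 3 was the highest and C4-/- 4 the lowest, so 1 genotype held the whole range. The log2 fold changes of Ski ran from -0.32 to 0.36 over the 9 comparisons, and its genotype means differed by at most 1.29 times. Broad libraries had a median of 142 CPM of Ski and the other 16 a median of 82.7. Without the broad ones the log2 fold changes ran from -0.77 in hC4B/- against WT to 0.93 in hC4A/- against hC4B/-, with an edgeR adjusted p of at least 0.660. Ski then averaged 106 ± 46.9 CPM in hC4A/- (SD, n = 5) and 51 ± 21 CPM in hC4B/- libraries (SD, n = 2). In hC4A/- against hC4B/- the log2 fold change was 0.36 ± 0.66 (SE), with an interval of -1.05 to 1.77, an edgeR adjusted p of 0.820, and a value of -0.10 with RLE scaling. Smad7 exceeded Ski per kilobase in 16 of 20 libraries.

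As a list, the 10 genes were divided in sign in every comparison. Their median log2 fold change was 0.12 in hC4A/A against hC4A/-, where the median of all genes tested was 0.17, and 0.14 in hC4A/- against hC4B/-, where that of all genes was -0.14. Against C4-/- the medians were -0.32 for hC4A/A, -0.26 for hC4A/- and -0.40 for hC4B/-, beside -0.02, -0.32 and -0.03 for all genes. Against WT they were -0.08 for hC4A/A, -0.21 for hC4A/-, -0.24 for hC4B/- and 0.16 for C4-/-, beside 0.18, -0.05, 0.18 and 0.33 for all genes. The comparisons share libraries and are not independent of each other. RLE scaling moved all genes, to a median of 0.53 in hC4B/- against WT, where 4 of the 10 genes had a positive log2 fold change with TMM and 7 with RLE. Under RLE the list's median there was 0.15. The list's median lay below that of all genes in 7 of 9 comparisons with TMM and in 8 of 9 with RLE, but in 2 of 9 without the broad libraries. In hC4B/- against WT it was then 0.02, beside -0.20 for all genes, and in hC4A/A against C4-/-, with 1 hC4A/A library left, 0.10, beside -0.41.

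With the filter on low counts, no gene of the wider pathway was called either. None of the genes in 6 further lists passed in any comparison or in the F test, in either direction, with 0 called by edgeR among the tested genes of each list. DESeq2 and limma voom also called 0. Over these genes and the 10 tests, an unadjusted p under 0.05 occurred in 45 of 780 values with edgeR (5.77%, against 9.51% of the values of all genes) and in 30 of 780 with limma voom (3.85%, against 5.25%). With DESeq2, which was given every gene with a count, it occurred in 100 of 1040 values (9.62%, against 4.62%). That background held 445696 values, low-count genes included, against 126800 with edgeR, so these 2 percentages are not like for like. Without the filter on low counts edgeR made 3 calls, of Nedd9 in the F test and in hC4A/- against C4-/- and of Spp1 in the F test. All 24 counts of Spp1 lay in 1 library. Nedd9 had counts in 8 libraries, but reached 88.2 CPM in 1 C4-/- library and at most 10.3 CPM in any other genotype. In that setting an unadjusted p under 0.05 with edgeR occurred in 84 of 1040 values of these lists (8.08%, against 9.92% for all genes). Calls over all genes without the filter are given in the last section. Among ligands and activating proteins, 11 of 17 genes were tested, and 3 had an F test p under 0.05. Tgfb2 and Tgfb3, the other TGF-beta ligands, held 31 and 9 counts over all libraries and were not tested, as was Itgb8, an integrin partner of alpha V, with 24 counts. The integrin subunits Itgb5 and Itgb1 had the highest mean levels of the list per kilobase, 34.8 and 18.9 CPM per kilobase, and averaged 124 ± 88 and 77.2 ± 42.1 CPM (SD, n = 20 each). Thbs1, a matrix protein that can activate latent TGF-beta, had the smallest F test p of the list and averaged 2.88 ± 3.18 CPM in hC4A/A, 4.35 ± 5.71 CPM in hC4A/-, 20.0 ± 27.5 CPM in hC4B/-, 1.16 ± 1.35 CPM in C4-/- and 10.4 ± 9.35 CPM in WT libraries (SD, n = 2, 5, 4, 5 and 4). Ltbp4, which binds latent TGF-beta in the matrix, averaged 9.78 ± 13.4 CPM in hC4A/A, 0.849 ± 1.10 CPM in hC4A/-, 10.5 ± 14.1 CPM in hC4B/-, 7.36 ± 8.97 CPM in C4-/- and 0.479 ± 0.716 CPM in WT libraries (SD, n = 2, 5, 4, 5 and 4). Its median was 21 CPM in the broad libraries and 0.490 CPM in the other 16.

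Among the other receptors 8 of 10 genes were tested, and 0 had an F test p under 0.05 with edgeR. The bone morphogenetic protein receptor Bmpr2 averaged 433 ± 250.1 CPM and the co-receptor Eng 30.6 ± 14.8 CPM (SD, n = 20 each). The smallest p belonged to Bmpr1a, at 28.8 ± 15.3 CPM in hC4A/A, 27.2 ± 19.5 CPM in hC4A/-, 27 ± 20.2 CPM in hC4B/-, 7.43 ± 7.83 CPM in C4-/- and 44 ± 25.5 CPM in WT libraries (SD, n = 2, 5, 4, 5 and 4), with an edgeR adjusted p of 0.519. Acvr1, a type I receptor of the same family, averaged 12.8 ± 12.6 CPM over the 20 libraries.

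Of 23 other SMADs and regulators, 19 were tested and 1 had an F test p under 0.05. Skil, a corepressor related to Ski and a SMAD target, averaged 2353 ± 1227 CPM (SD, n = 20), with a median of 98.7 CPM in the broad libraries and 2824 CPM in the other 16. The coactivator Crebbp averaged 495 ± 242 CPM, with medians of 103 CPM in the broad and 586 CPM in the other libraries. Smurf1, a ubiquitin ligase that acts on SMADs, had the smallest F test p, at 14.6 ± 2.99 CPM in hC4A/A, 4.63 ± 1.62 CPM in hC4A/-, 17.2 ± 16 CPM in hC4B/-, 34.1 ± 26.6 CPM in C4-/- and 6.42 ± 4.07 CPM in WT libraries (SD, n = 2, 5, 4, 5 and 4), and an edgeR adjusted p of 0.369. Its median was 30.7 CPM in broad and 5.25 CPM in other libraries. The SMAD phosphatase Ppm1a averaged 225 ± 222 CPM over all libraries.

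Among 18 general SMAD target genes, which include Skil and Smad7, 13 were tested and 1, Nedd9, had an F test p under 0.05. Nedd9, an adaptor protein, was at 88.2 CPM in its highest library, a C4-/- one, and at 0 CPM in all 5 hC4A/- libraries, with an edgeR adjusted p of 0.271, and of 0.00078 where no filter on low counts was used. The C4-/- libraries averaged 18.6 ± 39 CPM of Nedd9 (SD, n = 5). Junb, a transcription factor of the AP-1 family, averaged 15.5 ± 3.45 CPM in hC4A/A, 22.8 ± 10.1 CPM in hC4A/-, 26.5 ± 8.90 CPM in hC4B/-, 29.5 ± 15.4 CPM in C4-/- and 67.1 ± 66.4 CPM in WT libraries (SD, n = 2, 5, 4, 5 and 4), with a range of 16.2 to 164 CPM within WT.

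The list of genes that fall in mouse microglia without TGF-beta signalling was the best covered, since 20 of 20 were tested and detected in all libraries. With edgeR 0 of them had an F test p under 0.05. The receptor-like Fcrls averaged 2138 ± 1023 CPM (SD, n = 20). Fcrls had a median of 336 CPM in the broad libraries and 2695 CPM in the other 16. The smallest F test p was that of Gas6, a ligand of TAM receptors, at 8.01 ± 6.81 CPM in hC4A/A, 10.7 ± 8.01 CPM in hC4A/-, 46.5 ± 14.7 CPM in hC4B/-, 24.5 ± 19.8 CPM in C4-/- and 23 ± 11.8 CPM in WT libraries (SD, n = 2, 5, 4, 5 and 4), with an edgeR adjusted p of 0.456. The list's median log2 fold change lay between -0.50 and 0.10 over the 9 comparisons, where the median of all genes lay between -0.32 and 0.33.

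Of 20 genes that are higher in mouse microglia lacking the signal, 11 were tested and 1 had an F test p under 0.05. That gene was Cybb, a subunit of the phagocyte oxidase, which averaged 8.93 ± 10.8 CPM in hC4A/A, 9.93 ± 20.3 CPM in hC4A/-, 19.1 ± 31.3 CPM in hC4B/-, 31.8 ± 42.7 CPM in C4-/- and 199 ± 309 CPM in WT libraries (SD, n = 2, 5, 4, 5 and 4), with an edgeR adjusted p of 0.385. WT, which held the highest Cybb mean, was also the genotype with the highest neutrophil sums, and their part was not tested. Apoe, an apolipoprotein, averaged 163 ± 139.5 CPM and the lysozyme gene Lyz2 36 ± 32.5 CPM (SD, n = 20 each).

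The 3 genes with the highest medians were also set beside all other tested genes by the root mean square difference of log2 CPM over the 20 libraries, after centring each gene. Among the nearest to Tgfbr1 were Wnk1, a kinase, at 0.42 and Zmiz1, a transcriptional coregulator, at 0.45, where the median over all other genes was 1.34. Nearest to Smad7 were Tacc1 at 0.49 and Ppp6r2 and Med1 at 0.57 each, against a median of 1.68. Nearest to Smad3 were Fyb at 0.38, Tnfrsf21 at 0.47 and Ago3 at 0.51, against a median of 1.54. All values of a library share its depth and scaling, and these distances are descriptions.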

How the data were processed

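Per the labels, 1 library was made from 1000 sorted microglia of each mouse. The authors deposited raw counts of reads per gene for each library, in the layout of STAR's gene counts, with unmapped, multimapping, featureless and ambiguous reads on separate lines. Per the submitters' processing notes, STAR and edgeR were run with the build GRCm38, with versions not given in the sources used here. Here the deposited count column that ignores strand was used, since the first of the stranded columns held 49.7% to 49.9% of their counts. The 4 classes of reads without a gene, 14.8% to 42.1%, 13.2% to 28.9%, 21.8% to 42.1% and 0.897% to 5.86% of reads, entered neither library sizes nor tests. Symbols came from the GENCODE annotation of GRCm38 (54723 of 54838 identifiers). A deposited table of the whole series repeated these counts and was not used.

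Genes were filtered with filterByExpr by genotype (12680 kept), scaled by TMM and fitted in 1 robust edgeR quasi-likelihood model (edgeR 4.0.16, R 4.3.3) of the 20 libraries with a coefficient for each genotype, which left 15 residual degrees of freedom. Benjamini-Hochberg adjustment ran over the 12680 genes, and a gene was called at an adjusted p under 0.05. A standard error is the log2 fold change divided by the square root of F, and 95% intervals use 15 degrees of freedom, fewer than the edgeR p-values do. The common dispersion was 1.07. The other settings were RLE scaling, no filter, DESeq2 1.42.0, limma 3.58.1 voom, a replicate block, no satellite-like genes, no broad libraries (over 27000 genes detected), the longest transcript as gene length, and each library left out. The fit was also run on simulated counts, with changes set in hC4A/- and tested against C4-/- only, and its outcome is not reported here. The cDNA was amplified without molecular identifiers. Between the 33 pairs of libraries sharing a genotype, chi-square per degree of freedom was 26.3 to 142, where sampling noise gives 1. No pair thus looked like 1 library counted again. That each library is a separate mouse rests on the protocol, since this check cannot show it.

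The 10 genes and all lists were chosen with earlier results of these data known. Named from each further list were the genes that passed, otherwise the 2 tested genes with the highest mean CPM per kilobase and the 2 with the smallest F test p. Nearest patterns were sought for the 3 genes with the highest medians, on log2 CPM with a prior count of 2. Marker lists of microglia, astrocytes, oligodendrocytes and neutrophils are reported, and those of border macrophages, monocytes, neurons, lymphocytes, erythroid cells and vascular cells summed to at most 98.4, 54.7, 192, 12.8, 42.2 and 79.5 CPM in a library. Proteins were not used here. Some genes that the naming rule picks are not reported here.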

Additional observations from a re-analysis of the deposited data

Results flagged for a closer look

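Within a genotype, 1 library stood apart from the others, by Dixon's criterion at 95%, for 5 of the 40 combinations of gene and genotype with at least 4 libraries, or 12.5%. Chance gives about 1 in 20 for normally distributed values, and over all genes tested 20.6% of the 50178 such combinations met the criterion. Tgfb1 was at 53.6 CPM (101 counts) in hC4A/- 2 and at 2.73 to 13.5 CPM in the other hC4A/- libraries. Smad2 was at 15 CPM (26 counts) in hC4A/- 4 and at 0.679 to 4.09 CPM in the others of that genotype. Itgav was at 206 CPM (387 counts) in C4-/- 4 and at 78.3 to 111 CPM in the other C4-/- libraries. The broad library C4-/- 3 stood apart for Tgfbr2, at 209 CPM (323 counts) against 10.1 to 62.5 CPM, and for Smad7, at 50.5 CPM (78 counts) against 224 to 272 CPM. The cause was not tested.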

How the results depend on the processing

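None of the 10 genes was called in the 9 comparisons or the F test under the 27 other settings that refit the model, the replicate block included, and the smallest adjusted p among them was 0.0833 (DESeq2, Tgfbr2 in hC4A/- against hC4B/-). Counts of all genes called moved more, from 0 in each comparison and 15 in the F test. Without the filter on low counts edgeR called 3, 65, 28 and 26 genes for hC4A/A, hC4A/-, hC4B/- and C4-/- against WT, 53 and 16 for hC4A/- and hC4B/- against C4-/-, 36 for hC4A/- against hC4B/- and 697 in the F test. DESeq2 called 1, 36, 57 and 18 against WT in the same order, 16 and 2 against C4-/-, 86 for hC4A/- against hC4B/-, 1 for hC4A/A against hC4A/- and 63 overall. Voom called 1 for hC4A/- against WT, 1 for hC4A/- against C4-/-, 6 for hC4A/A against hC4A/- and 0 overall. The F test called 24 genes with RLE scaling, 38 without satellite-like genes, 2 without the broad libraries and 0 with the replicate block. Without the broad libraries hC4A/- against WT called 1. Leaving out 1 library gave 0 to 34 genes in the F test (0 without hC4B/- 3, C4-/- 1 or WT 1), 0 to 1 for hC4A/A against WT, 0 to 2 for hC4B/- against WT, 0 to 5 for hC4A/- against hC4B/-, and 0 in the other comparisons. Replicate numbers were not taken to pair libraries. Over 33 pairs with the same number the deviations from genotype means had a median correlation of 0.00833, and 5 exceeded 0.1. Those correlations ran from -0.301 to 0.697, and the median over 124 pairs with different numbers was -0.00143. A low median cannot show that no libraries share a batch. Under the replicate block the counts in the 9 comparisons were 0 as before. Smad7 in hC4A/A against hC4A/- turned to 0.12 without the broad libraries and ran from -2.36 to 0.29 with 1 library left out, turning only without hC4A/A 2. Ski in hC4A/- against hC4B/- turned to -0.10 with RLE scaling and with DESeq2. Further signs turned without the broad libraries, while other values kept theirs. Tgfb1 turned from -1.08 to 1.95 in hC4A/- against hC4B/- and from 0.25 to -2.87 in hC4B/- against WT. Tgfbr2 turned from 1.46 to -0.37 in hC4B/- against WT. By the longest transcript in place of all exons, levels per kilobase were 1.96 times as high for Tgfb1, 1.52 times for Itgav and 1.01 to 1.17 times for the other 8 genes, with a mean for Itgav of 13.3 in place of 8.75 CPM per kilobase. Low counts were most frequent for Smad2 and Tgfb1, of which 8 and 15 libraries held at least 10 counts. Tgfb1 had 4 counts in WT 1, with 2412018 gene counts, and 54 in hC4A/A 2, with 855099. The cause of these shifts was not tested.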
